A study of Mus musculus with 4 samples.

Results

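The genes described here are 38 genes of the cell cycle and of mitosis, measured in mouse liver. They were chosen by name and grouped by the phase in which they act: 5 genes of the G1/S transition, 10 genes of S phase and 23 genes of G2 and M phase. All 38 were found, by the accession of their probes, among the 20882 genes that could be named on the array. The series holds liver RNA from male mice on 4 one-colour Agilent arrays, with 1 array for each of 4 groups. These are catalase knockout mice fed a high-fat diet (KO HFD), catalase knockout mice fed a normal diet (KO ND), wild-type mice fed the high-fat diet (WT HFD) and wild-type mice fed the normal diet (WT ND). The high-fat diet drew 60.3% of its calories from fat and the normal diet 18%, and each was fed for 11 weeks, between 29 and 40 weeks of age. The labels do not give the strain, how the catalase gene was disrupted, or whether a sample was 1 animal or a pool. With 1 array per group there was no replicate of any group, so a difference between 2 arrays compares those arrays, and no p-value was given to it.

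Progress through the cell cycle is driven by cyclin-dependent kinases, whose partner cyclins are made and destroyed in turn. Many of the genes needed to copy DNA are switched on by E2F factors at the G1/S transition, and those needed for mitosis are switched on later, by the MuvB complex with B-MYB and FOXM1, often through promoters that carry a CHR element and CCAAT boxes. Most hepatocytes of an adult liver rest outside the cycle and can re-enter it after injury or loss of tissue, while macrophages, stellate cells and other non-parenchymal cells can also divide.

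The promoters below are those of the members that changed at least 2-fold, by a measured ratio, between the knockout arrays on the 2 diets and that had an entry in the RefSeq promoter table. They show which of these letters the changed genes have near their start. Each window runs from 250 bases before to 50 bases after the start of the gene, 5′ to 3′ on the gene's strand, in build GRCm38.p6. The windows are chr7:135716330-135716629 on the minus strand for Mki67, chr7:80294201-80294500 on the plus strand for Prc1, chr7:122159185-122159484 on the plus strand for Plk1, chr4:118437294-118437593 on the minus strand for Cdc20, chr2:164769679-164769978 on the plus strand for Ube2c, chr8:75109259-75109558 on the plus strand for Mcm5, and chr1:191821223-191821522 on the plus strand for Nek2. Prc1 has 2 overlapping windows, and the first is shown. Capitals mark every match, on either strand, to the CHR letters TTTGAA, to CCAAT, or to E2F letters, for which TTTCCCG, then TTTCGCG and then TTTGGCG were searched.
Mki67: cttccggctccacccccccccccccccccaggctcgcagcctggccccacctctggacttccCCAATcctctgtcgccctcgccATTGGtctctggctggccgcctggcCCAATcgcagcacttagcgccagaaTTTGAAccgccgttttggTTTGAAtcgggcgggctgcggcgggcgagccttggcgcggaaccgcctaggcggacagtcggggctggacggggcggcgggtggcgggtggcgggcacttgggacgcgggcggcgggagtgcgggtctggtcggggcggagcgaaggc
Prc1: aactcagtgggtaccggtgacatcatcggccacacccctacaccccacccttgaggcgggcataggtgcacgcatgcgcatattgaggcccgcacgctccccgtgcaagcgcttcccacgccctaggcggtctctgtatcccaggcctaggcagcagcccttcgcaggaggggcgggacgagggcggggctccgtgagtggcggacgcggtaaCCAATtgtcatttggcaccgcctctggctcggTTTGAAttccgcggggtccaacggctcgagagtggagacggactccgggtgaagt
Plk1: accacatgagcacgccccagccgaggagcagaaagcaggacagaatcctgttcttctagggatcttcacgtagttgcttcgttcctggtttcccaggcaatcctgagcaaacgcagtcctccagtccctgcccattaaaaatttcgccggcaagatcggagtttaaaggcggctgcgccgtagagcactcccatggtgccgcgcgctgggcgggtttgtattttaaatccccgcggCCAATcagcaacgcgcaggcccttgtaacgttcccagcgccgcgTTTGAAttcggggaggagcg
Cdc20: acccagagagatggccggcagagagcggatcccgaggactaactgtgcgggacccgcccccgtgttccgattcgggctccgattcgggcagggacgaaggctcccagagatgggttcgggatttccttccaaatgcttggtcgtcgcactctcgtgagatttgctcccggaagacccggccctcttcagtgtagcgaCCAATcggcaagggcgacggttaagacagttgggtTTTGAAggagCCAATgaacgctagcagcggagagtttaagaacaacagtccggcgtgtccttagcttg
Ube2c: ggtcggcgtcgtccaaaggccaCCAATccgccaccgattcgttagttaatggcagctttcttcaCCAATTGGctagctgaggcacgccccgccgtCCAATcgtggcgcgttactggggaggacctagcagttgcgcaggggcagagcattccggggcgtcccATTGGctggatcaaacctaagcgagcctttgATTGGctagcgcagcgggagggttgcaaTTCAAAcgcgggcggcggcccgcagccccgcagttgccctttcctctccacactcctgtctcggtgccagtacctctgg
Mcm5: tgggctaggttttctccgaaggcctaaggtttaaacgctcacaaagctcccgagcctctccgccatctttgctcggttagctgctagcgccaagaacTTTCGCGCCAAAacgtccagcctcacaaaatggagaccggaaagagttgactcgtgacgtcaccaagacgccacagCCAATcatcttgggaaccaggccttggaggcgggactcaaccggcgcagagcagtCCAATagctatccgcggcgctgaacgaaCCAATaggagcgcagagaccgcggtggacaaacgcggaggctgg
Nek2: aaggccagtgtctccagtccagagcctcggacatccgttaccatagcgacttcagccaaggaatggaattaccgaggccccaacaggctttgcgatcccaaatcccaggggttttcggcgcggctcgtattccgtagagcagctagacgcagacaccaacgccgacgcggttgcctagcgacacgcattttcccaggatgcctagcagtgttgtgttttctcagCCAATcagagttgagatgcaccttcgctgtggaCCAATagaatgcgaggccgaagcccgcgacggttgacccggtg
Each of the 5 G2 and M promoters printed above Mcm5 holds a CHR match and at least 1 CCAAT. The Mcm5 window holds 2 overlapping E2F matches and no CHR match, and the Nek2 window holds 2 CCAAT matches and neither of the others.

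A window was given for 29 of the 38 members. The CHR letters were present in 13 of 18 G2 and M members with a window (72.2%) and in 1 of 9 S-phase members (11.1%), against 20.2% of all 27025 genes with a window. CCAAT was present in 16 of 18 G2 and M members (88.9%) and in 8 of 9 S-phase members (88.9%), against 41.1% of all genes. The E2F letters were present in 4 of 18 G2 and M members (22.2%) and in 4 of 9 S-phase members (44.4%), against 6.38% of all genes. The windows listed for the 2 G1/S members, Ccne1 and E2f1, held none of the letters searched. Only the listed window and these exact letters were searched, so this does not show that their promoters lack such sites. A match is a run of letters in the window and not a measured binding site.

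Levels are given as scaled signal, the processed signal of a probe with the array's 75th percentile set to 1000, and a gene is represented by its brightest probe. A difference is given on the log2 scale, and the value after ± is the error that the scanner's own error model gives for it, which covers the measurement of the spots and not the spread between animals. A gene is said to have risen or fallen if its signal differed at least 2-fold and was well above background on both arrays. Where only 1 of the 2 arrays was well above background, the dim array was set to the higher of its own signal and the lowest signal well above background, and the gene counted if this bound reached 2-fold. Signals of different probes are not comparable as amounts of RNA.

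The 4 arrays had 25184, 23998, 23760 and 24580 of 39429 probes well above background, for KO HFD, KO ND, WT HFD and WT ND. The 75th percentile before scaling was a processed signal of 1152.0 on the KO HFD array and between 1002.5 and 1019.1 on the other 3. Catalase (Cat), the gene disrupted in the knockouts, had scaled signals of 1928 and 2196 on the knockout arrays and 26999 and 29714 on the wild-type arrays, so the genotype labels fit its signal, which stayed well above background on the knockout arrays. All 9 hepatocyte markers were well above background on every array.

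Of the 38 members, 31 were well above background on all 4 arrays, including 4 of 5 G1/S genes, all 10 S-phase genes and 17 of 23 G2 and M genes. Top2a, Bub1b, Kif11 and Nusap1 passed on 1 or 2 arrays. Ccne2, Bub1 and Aurkb passed on none, so the arrays give no level for them. By array, 35 members passed on the KO HFD array, 32 on the KO ND array and 31 on each of the wild-type arrays. The 31 fully measured members were most often brightest in KO HFD, which was the highest of the 4 arrays for 24 of them (77.4%), against 23.6% of all genes measured on 4 arrays. The lowest array was KO ND for 12 of the 31 and WT ND for 14.

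**Figure D1:**
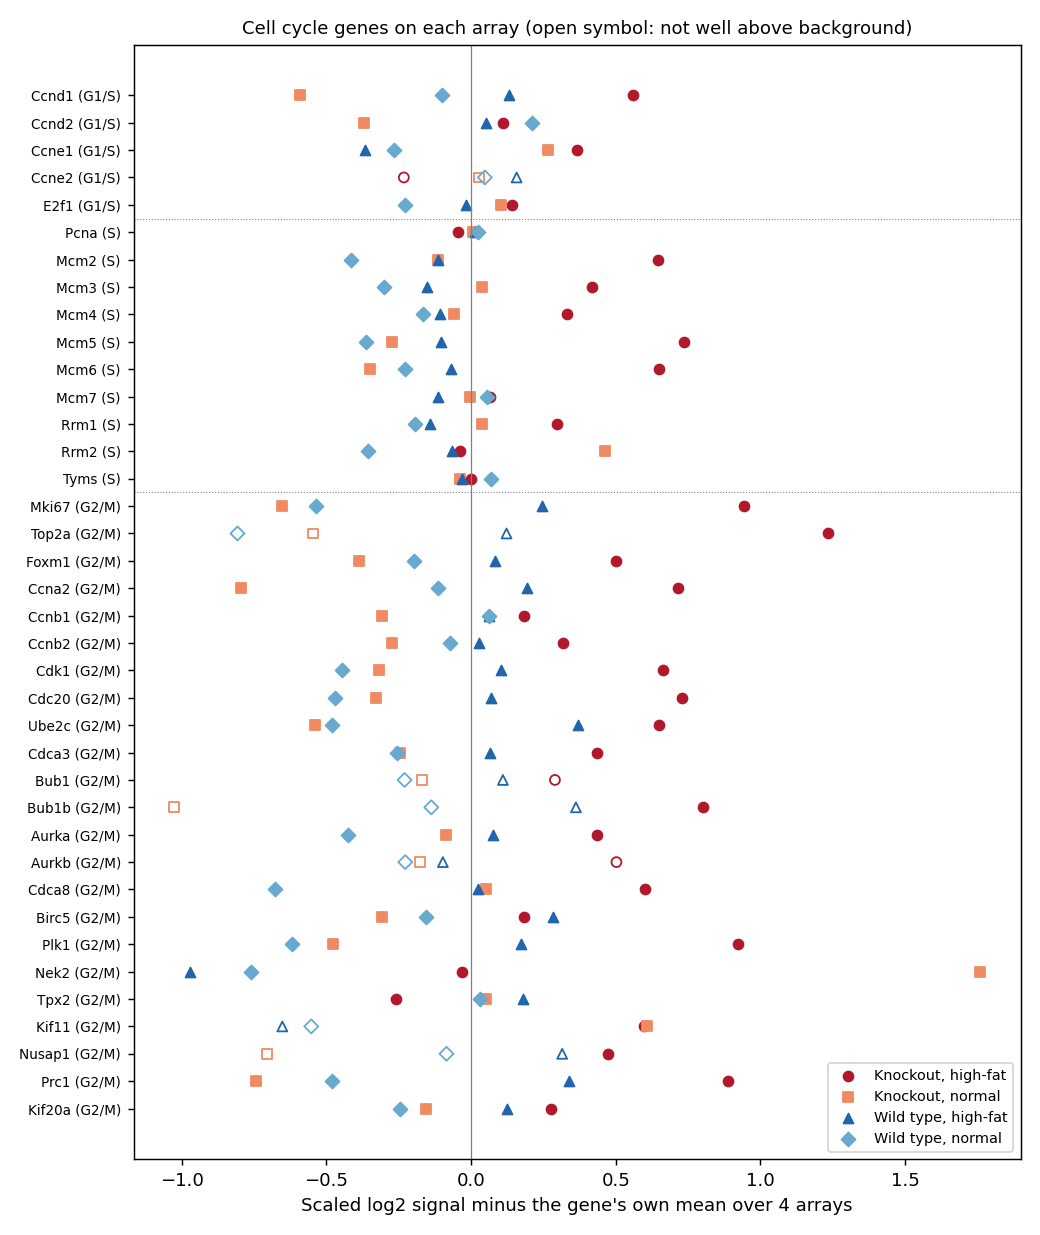
Scaled log2 signal of each of the 38 members on the 4 arrays, minus the gene's own mean over them, grouped by phase, with 1 array per group. Filled symbols were well above background and open symbols were not. The KO HFD symbol is the highest for 24 of the 31 members measured on all 4 arrays.

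In knockout mice, mitotic genes were higher on the high-fat diet than on the normal diet. Of the 35 members that could be compared, 9 rose (25.7%) and 1 fell (2.86%), against 4.22% of all genes that rose and 1.64% that fell under the same rule. The 9 were 7 genes of G2 and M phase (Mki67, Prc1, Ccna2, Plk1, Ube2c, Cdc20 and Top2a), the G1 cyclin Ccnd1 and the replication helicase subunit Mcm5. The mitotic kinase Nek2 fell. With a normexp background correction in place of the scanner's, 5 of the 9 passed at an offset of 0 (Ccnd1, Mki67, Ccna2, Plk1 and Prc1) and 1 at an offset of 50 (Mki67). The share of all genes that rose with normexp is not given here. Of the 32 members measured on both arrays, 27 were higher and 5 lower on the high-fat diet, with a median difference of 0.51 against -0.07 over all genes. Because RNA of whole liver was measured, more cycling cells and more of each RNA per cell cannot be told apart here.

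The proliferation marker Mki67, which coats chromosomes in mitosis, had a scaled signal of 398 in KO HFD, against 132 in KO ND, 245 in WT HFD and 143 in WT ND. By this brightest probe it was thus highest in KO HFD, next in WT HFD, and alike in the normal-diet groups. The diet difference in knockouts was 1.60 ± 0.21. Prc1, which bundles the microtubules of the central spindle, had 160 in KO HFD, 51.6 in KO ND, 109 in WT HFD and 61.7 in WT ND. Its diet difference in knockouts was 1.63 ± 0.24, and both high-fat arrays lay above both normal-diet arrays.

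Ccna2, the cyclin of S and G2 phase, had scaled signals of 121 in KO HFD, 42.7 in KO ND, 84.7 in WT HFD and 68.6 in WT ND. Its lowest level was that of KO ND, and the diet difference in knockouts was 1.51 ± 0.29. Plk1, a kinase of mitotic entry and spindle assembly, had 149 in KO HFD, 56.7 in KO ND, 89.3 in WT HFD and 51.5 in WT ND. Its diet difference in knockouts was 1.40 ± 0.26, with the normal-diet groups close to each other.

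Ube2c and Cdc20, of the machinery that ends mitosis by destroying cyclin B, also rose. Ube2c, the ubiquitin-conjugating enzyme of the anaphase-promoting complex, had scaled signals of 163 in KO HFD, 71.5 in KO ND, 134 in WT HFD and 74.3 in WT ND. Cdc20, which activates that complex, had 236 in KO HFD, 113 in KO ND, 150 in WT HFD and 103 in WT ND. Both were higher on each high-fat array than on either normal-diet array, and the diet differences in knockouts were 1.19 ± 0.23 for Ube2c and 1.06 ± 0.21 for Cdc20. Cdc20 was below the 2-fold limit with median scaling (0.96) or quantile normalization (0.98).

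Top2a, the topoisomerase that untangles replicated chromosomes, was well above background only in KO HFD, with a scaled signal of 51.7, against 15.1 in KO ND, 24.0 in WT HFD and 12.6 in WT ND. It was at least 2.29-fold higher in KO HFD than in KO ND. The spindle checkpoint kinase gene Bub1b and the spindle protein gene Nusap1 were also well above background on that array alone. Bub1b had 26.3 there, 7.39 in KO ND, 19.4 in WT HFD and 13.7 in WT ND. Nusap1 had 30.6 in KO HFD, 13.5 in KO ND, 27.4 in WT HFD and 20.7 in WT ND. Their bounds in the diet comparison of knockouts were 1.17-fold for Bub1b and 1.36-fold for Nusap1, short of the limit.

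Most other G2 and M genes differed in the same direction by less. Cdk1, the kinase that starts mitosis, had scaled signals of 113 in KO HFD, 57.1 in KO ND, 76.2 in WT HFD and 52.3 in WT ND, and its diet difference in knockouts of 0.99 ± 0.24 lay just below the limit. Foxm1, a transcription factor of mitotic genes, had 56.1 in KO HFD, 30.3 in KO ND, 42.0 in WT HFD and 34.6 in WT ND, and a diet difference in knockouts of 0.89 ± 0.34. The B-type cyclins, which partner Cdk1, differed less again. Ccnb2 had 251 in KO HFD, against 166 in KO ND, 205 in WT HFD and 191 in WT ND, and Ccnb1 lay between 50.8 and 71.3 on all arrays. The remaining G2 and M members measured on both knockout arrays differed as follows: Cdca3 by 0.69, the chromosomal passenger subunits Cdca8 by 0.55 and Birc5 by 0.49, the spindle-pole kinase Aurka by 0.52, and the kinesin Kif20a by 0.43. Kif11, the kinesin that separates spindle poles, differed by -0.01 ± 0.37, and the Aurka activator Tpx2 by -0.30 ± 0.37.

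Nek2, a kinase of centrosome separation, fell in knockouts on high-fat diet. Its scaled signal was 84.5 in KO HFD, 291 in KO ND, 43.8 in WT HFD and 50.7 in WT ND. The KO ND array stood apart from the other 3. The diet difference in knockouts was -1.78 ± 0.22 and in wild types -0.21 ± 0.30. Nek2 has 1 probe, so no second probe bears on it.

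**Figure D2:**
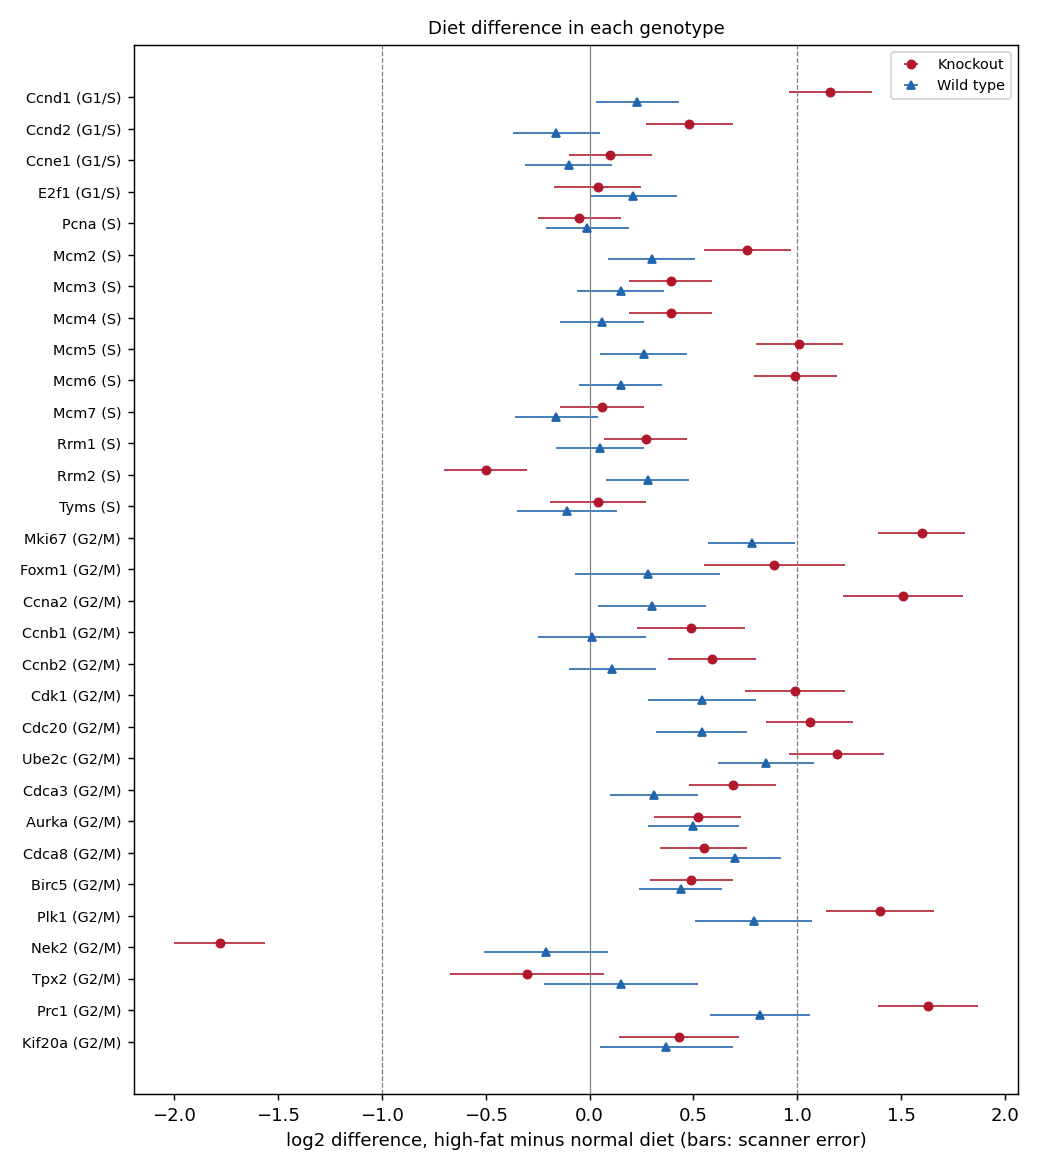
Log2 difference between high-fat and normal diet for each of the 31 members well above background on all 4 arrays, in knockout and in wild-type mice, ordered by phase, with bars for the scanner's error and dashed lines at 2-fold. Mki67, Prc1, Ccna2 and Plk1 have the highest measured differences in knockouts (1.40 to 1.63), and Nek2 lies at -1.78.

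Genes of the G1/S transition and of S phase differed less by diet in knockouts than the mitotic genes. Their median differences were 0.29 over 4 G1/S members and 0.33 over 10 S-phase members, against 0.64 over 18 G2 and M members. Ccnd1, the cyclin that links growth signals to G1 progress, rose. Its scaled signal was 2993 in KO HFD, 1343 in KO ND, 2215 in WT HFD and 1890 in WT ND, and the diet difference in knockouts was 1.16 ± 0.20. Its level on the KO ND array was the lowest of the 4. Ccnd2, a related D-type cyclin, had 364 in KO HFD, 261 in KO ND, 349 in WT HFD and 391 in WT ND, with the same array lowest. The E2F-activated cyclin Ccne1 did not follow diet: it had 687 and 640 in knockouts on high-fat and normal diet, against 415 and 443 in wild types on high-fat and normal diet. E2f1, which drives entry into S phase, had 378 in KO HFD, 367 in KO ND, 338 in WT HFD and 293 in WT ND.

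Within S phase, the 6 subunits of the MCM replicative helicase had diet differences between 0.06 and 1.01 in knockouts. Mcm5 rose in knockouts on high-fat diet, with scaled signals of 416 in KO HFD, 207 in KO ND, 233 in WT HFD and 195 in WT ND. Its difference of 1.01 ± 0.21 was just past the limit, and was 0.90 with median scaling, 0.95 with quantile normalization and 1.00 (just under the limit) with cyclic loess. Mcm6 was just short of it at 0.99 ± 0.20, with 1861 in KO HFD, 935 in KO ND, 1130 in WT HFD and 1016 in WT ND, and reached 1.03 with quantile normalization and 1.05 with cyclic loess. Mcm2 differed by 0.76, with 413 in KO HFD and between 197 and 243 on the other 3 arrays. Mcm3 and Mcm4 each differed by 0.39, and Mcm7 by 0.06. KO HFD was the brightest array for Mcm2 to Mcm6, and by little for Mcm7 (1912, against 1901 in WT ND).

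Pcna, the sliding clamp of DNA polymerase, lay between 5166 and 5423 on all 4 arrays, and the thymidylate synthase gene Tyms between 79.2 and 85.5. The subunits of ribonucleotide reductase, which makes the nucleotides for DNA, differed from each other. Rrm1 had 879 in KO HFD, 731 in KO ND, 647 in WT HFD and 623 in WT ND. Rrm2 was highest in KO ND, at 2362, against 1673 in KO HFD, 1633 in WT HFD and 1341 in WT ND, and its diet difference in knockouts was -0.50 ± 0.20.

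Some markers of other liver cells moved with these genes. Of 12 macrophage and Kupffer cell markers on the array, all well above background on every array, 7 rose and none fell between knockouts on high-fat and on normal diet. Over all genes 4.22% rose and 1.64% fell in this comparison, which is the background for each count of markers below. Their summed scaled signal was 88234 in KO HFD, 35099 in KO ND, 49748 in WT HFD and 42028 in WT ND. Of 9 stellate cell and fibroblast markers, 4 rose, and the summed signal was 73353 in KO HFD, 48079 in KO ND, 61919 in WT HFD and 55470 in WT ND. Most of this sum was the probe of Dcn, with 60920 in KO HFD, 44375 in KO ND, 55983 in WT HFD and 50897 in WT ND. Of 6 neutrophil markers, 3 rose (S100a8 by 2.49, S100a9 by 2.45 and Retnlg by 2.07), although their sum, carried by the bright and level probe of Csf3r, lay between 58781 and 68988 on the 4 arrays. Of the markers that could be compared, 1 of 9 lymphocyte markers rose and 1 fell, and 1 of 9 hepatocyte markers fell. In the same comparison 1 of 7 endothelial, 1 of 4 cholangiocyte and 1 of 4 erythroid markers rose. The sums of lymphocyte markers were 29462 in KO HFD, 32868 in KO ND, 44880 in WT HFD and 49974 in WT ND, with Cd8a and Klrb1c not well above background on any array. These sums were carried by the probe of Cd4, with 25635 in KO HFD, 28561 in KO ND, 40495 in WT HFD and 44965 in WT ND. Between genotypes on high-fat diet, 3 measured lymphocyte markers were higher in knockouts and 4 lower, and on normal diet 2 were higher and 6 lower. The hepatocyte sum was 1750300 in KO HFD and between 2106507 and 2284330 on the other 3 arrays. The endothelial sums lay between 33477 and 36429, and the cholangiocyte sums between 608 and 1796 (Epcam was not well above background on any array). Most of each cholangiocyte sum was the probe of Spp1, with 1488 in KO HFD, 325 in KO ND, 435 in WT HFD and 625 in WT ND. The part of these cells in the cell cycle differences was not tested.

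In wild-type mice the same diet comparison gave smaller differences. None of the 31 members that could be compared rose or fell 2-fold, against 1.78% of all genes that rose and 2.31% that fell. Of the 31, 25 were higher and 6 lower on high-fat diet, with a median of 0.26 against -0.02 over all genes. The member median was 0.10 and 0.11 with normexp at offsets of 50 and 0. The medians were 0.06 for G1/S, 0.11 for S phase and 0.44 for G2 and M phase. The highest differences were those of Ube2c (0.85 ± 0.23), Prc1 (0.82 ± 0.24), Plk1 (0.79 ± 0.28), Mki67 (0.78 ± 0.21) and Cdca8 (0.70), and with the mean of all probes in place of the brightest Ube2c passed the limit. No macrophage marker rose or fell in this comparison, and 2 of 9 stellate cell markers rose. In addition 1 of 7 endothelial and 1 of 4 erythroid markers rose, and 1 of 9 lymphocyte and 1 of 5 cholangiocyte markers fell.

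The diet comparisons in knockouts and in wild types share no array, so their directions can be set side by side. A positive difference in both genotypes was found for 23 of 31 members (74.2%), against 24.0% of 13548 genes measured on all 4 arrays, and the number was between 19 (normexp) and 24 under the alternatives tried. By phase this was 15 of 17 G2 and M members, 6 of 10 S-phase members and 2 of 4 G1/S members. A negative difference in both was found for 2 members (6.45%), Pcna and Nek2, against 38.7% of all genes. The 4 arrays lay on 1 slide, and no replicate shows how often such directions recur.

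The diet difference was the higher in knockouts for 25 of the 31 members and the lower for 6, with a median gap of 0.33 against -0.04 over all genes. The medians were 0.42 for G1/S, 0.23 for S phase and 0.44 for G2 and M phase. Under the 2-fold rule the gap counted for Ccna2 (1.20, greater in knockouts) and Nek2 (-1.57), against 3.73% of all genes with a greater diet difference in knockouts and 1.28% with a smaller one. These gaps have no test, since each rests on 4 single arrays.

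**Figure D3:**
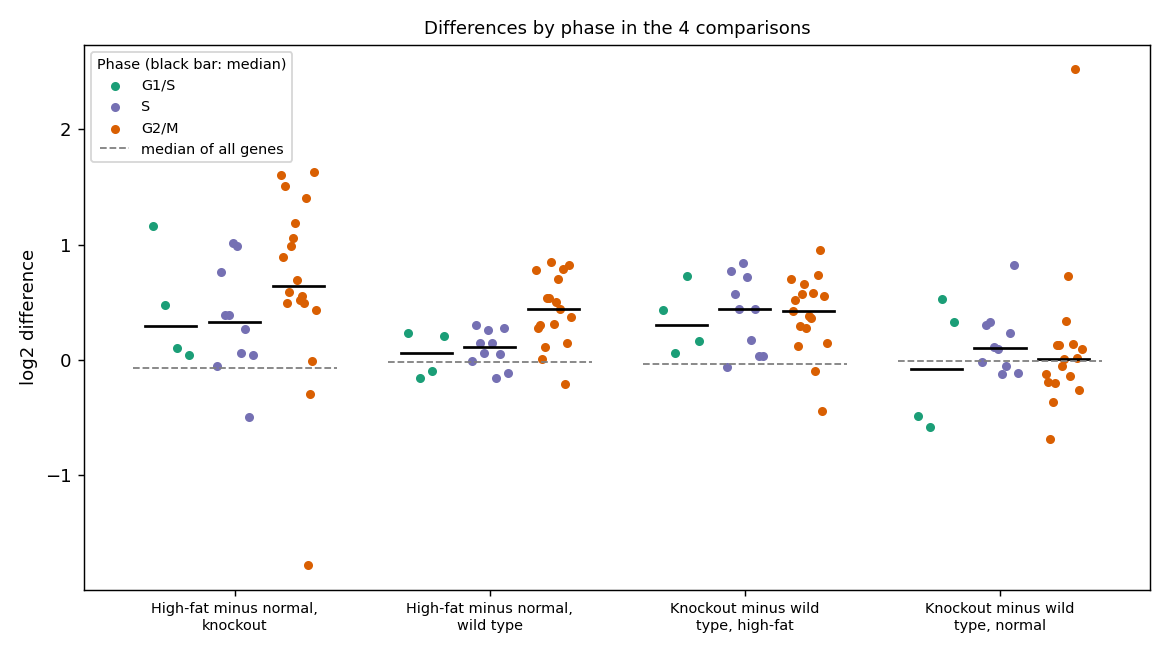
Log2 differences of the members in the 4 comparisons by phase, with 1 point per member measured on both arrays and a black bar at the phase median; the dashed line is the median of all genes. In knockouts the diet medians are 0.29 for G1/S, 0.33 for S and 0.64 for G2 and M, and between genotypes on normal diet they lie between -0.08 and 0.10.

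On the high-fat diet, knockouts had higher levels than wild types for most members, by modest amounts. Only Top2a rose, by its bound of at least 2.15-fold, so 1 of 35 members (2.86%) rose and none fell, against 2.51% of all genes that rose and 1.59% that fell, which is near the background. This call was lost with normexp, where the Top2a difference was 0.38 and 0.84 at offsets of 50 and 0. Of the 31 members measured on both arrays, 28 were higher in knockouts and 3 lower, with a median of 0.43 against -0.04 over all genes, and the share above 0 was 90.3% against 43.1% of all genes. The KO HFD array also enters the diet comparison of knockouts, so both comparisons rest on it. The medians were 0.30 for G1/S, 0.44 for S phase and 0.42 for G2 and M phase. The highest measured differences were those of Nek2 (0.95 ± 0.28), Mcm5 (0.84), Mcm2 (0.77), Plk1 (0.74), Ccne1 (0.73), Mcm6 (0.72) and Mki67 (0.70). Kif11 was well above background in both knockouts, at 27.9 on high-fat and 28.1 on normal diet, and in neither wild type, at 11.8 on high-fat and 12.6 on normal diet, which gave bounds of 1.18-fold on high-fat and 1.31-fold on normal diet. Of the macrophage markers 5 rose and none fell, 3 of 9 stellate cell markers rose, 3 of 6 neutrophil markers rose (S100a8 by 1.28, S100a9 by 1.36 and Mpo by at least 3.61-fold), and 2 of 4 cholangiocyte markers rose. Of 9 hepatocyte markers, all lower in knockouts, 2 fell (Tat by -1.07 and Cps1 by -1.01). Of 9 lymphocyte markers 1 rose and 1 fell, and 1 of 4 erythroid markers fell.

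On the normal diet the genotypes differed little. Nek2 rose in knockouts, by 2.52 ± 0.25, and was the 1 member of 32 (3.12%) that did so, and none fell, against 1.4% of all genes that rose and 2.5% that fell. Of the 31 measured members, 17 were higher in knockouts and 14 lower, with a median of 0.02 against -0.01 over all genes, and this median was below 0 with a normexp background correction (-0.05 and -0.09 with offsets of 50 and 0). The medians were -0.08 for G1/S, 0.10 for S phase and 0.01 for G2 and M phase. Below the limit, Rrm2 (0.82), Cdca8 (0.73) and Ccne1 (0.53) were higher in knockouts, and Ccna2 (-0.69 ± 0.31), Ccnd2 (-0.58) and Ccnd1 (-0.49) were lower. Of the macrophage markers 1 fell and none rose. Of 6 neutrophil markers 1 rose (Mpo) and 1 fell (Retnlg), and 1 of 10 lymphocyte markers fell (Cd79a).

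For 9 members the array holds more than 1 probe, with 12 further probes in all. In the diet comparison of knockouts, 4 of the 12 were measured on both arrays, and all 4 differed in the same direction as the brightest probe. The further Mki67 probe had 320 in KO HFD, 86.4 in KO ND, 183 in WT HFD and 143 in WT ND, a diet difference in knockouts of 1.89. Between genotypes on normal diet it gave -0.72 ± 0.22, where the brightest Mki67 probe gave -0.12 ± 0.22. The further Ube2c probe had 124 in KO HFD, 39.0 in KO ND, 91.6 in WT HFD and 31.9 in WT ND. Its diet difference in knockouts was 1.67, and in wild types, where the normal-diet array was not well above background, it was at least 2.87-fold higher on high-fat diet.

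Probes of the inhibitor-of-apoptosis and passenger gene Birc5 differed in size of response. The brightest had 662 in KO HFD, 471 in KO ND, 707 in WT HFD and 521 in WT ND. Another had 53.6 in KO HFD, 25.7 in KO ND, 52.9 in WT HFD and 18.0 in WT ND, which is a difference of 1.06 in knockouts and a rise of at least 2.48-fold in wild types. The dimmest of the 3 was well above background only in KO HFD, at 29.4, against 15.3 in KO ND, 28.5 in WT HFD and 21.6 in WT ND. All 3 Birc5 probes were brighter on high-fat than on normal diet in knockouts, by unequal amounts. In wild types the dimmest was not well above background on either array and gives no direction, and the others were brighter on high-fat diet. The probes of Tpx2 disagreed: the further one was well above background only in KO HFD, at 43.6, against 5.63 in KO ND, 22.1 in WT HFD and 11.2 in WT ND. The brightest Tpx2 probe lay between 25.1 and 34.0 on all arrays and was lowest in KO HFD. The further probes of Cdk1, Ccnb1, Foxm1 and Ccne1 were not well above background on any array.

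**Figure D4:**
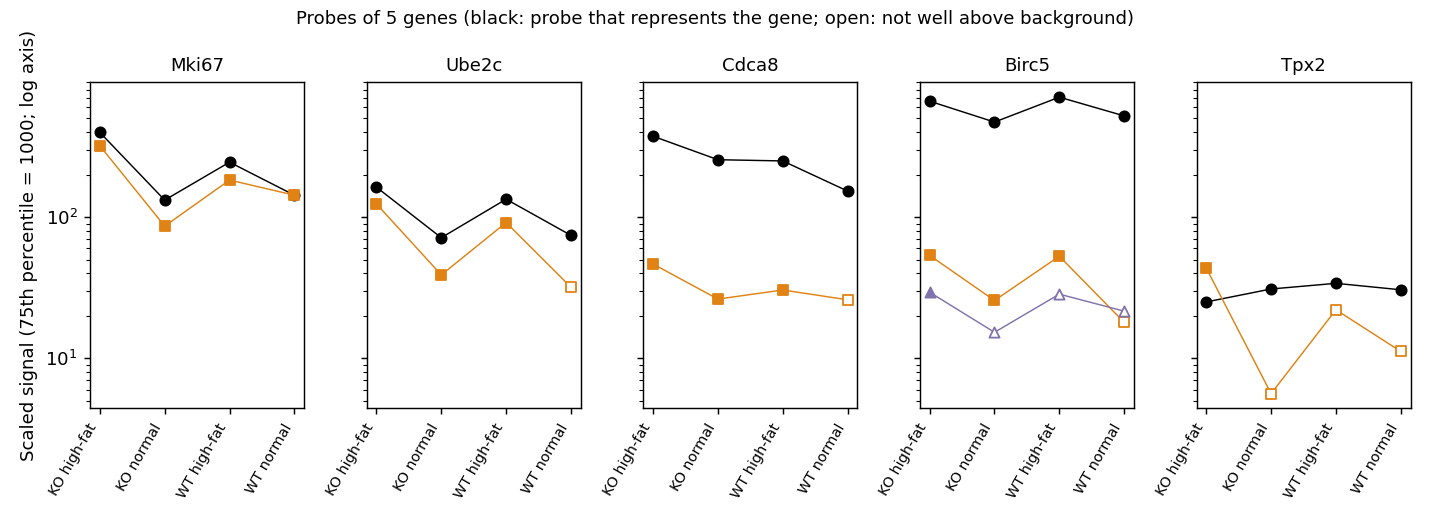
Scaled signal (log scale) on the 4 arrays of the probes of Mki67, Ube2c, Cdca8, Birc5 and Tpx2, with 1 line per probe and the brightest probe in black; filled symbols were well above background. Both Mki67 and both Ube2c probes are highest in KO HFD, and the Tpx2 probes differ in which array is highest.

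Genes of the cell cycle outside the 38 were described from separate lists. Of 42 other G2 and M genes, 26 could be compared between diets in knockouts. Of these 26, 3 rose (against 4.22% of all genes) and none fell on high-fat diet: the cohesion regulator Cdca5 by 1.16 ± 0.09, the kinetochore motor Cenpe by 1.26 ± 0.27 and the cytokinesis scaffold Anln by 1.14 ± 0.24. Of the 22 of them measured on both arrays, 18 were higher on high-fat diet, with a median of 0.43. In wild types 1 of 25 rose (4.0%, against 1.78% of all genes), the kinetochore gene Spc25 by 1.02 ± 0.20, with a median of 0.24. Between genotypes none of the 42 rose or fell, with medians of 0.24 on high-fat diet and 0.04 on normal diet.

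Among 30 other genes of G1/S and S phase, those that rose in knockouts on high-fat diet include Uhrf1, which guides the copying of DNA methylation, by 1.88 ± 0.27. The 24 measured on both arrays were evenly divided, 12 higher and 12 lower, with a median of 0.00. Uhrf1 was also higher in knockouts than in wild types on high-fat diet, by 1.15 ± 0.24. None of the 22 other kinases, Rb family and E2F genes rose or fell in any of the 4 comparisons, and their medians lay between -0.02 and 0.07.

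Among 8 inhibitors of cyclin-dependent kinases, Cdkn1a, which encodes p21, rose with diet in both genotypes. Its brightest probe had 984 in KO HFD, 255 in KO ND, 732 in WT HFD and 176 in WT ND. The differences of this probe were 1.95 ± 0.07 in knockouts and 2.06 ± 0.07 in wild types. A second Cdkn1a probe was well above background only in WT ND, at 165, against 12.6 in KO HFD, 10.2 in KO ND and 4.75 in WT HFD, so the 2 probes disagree on that array.

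One test across the 4 arrays was possible, an additive limma fit of genotype and diet that takes the gap between the diet differences as its error, with 1 residual degree of freedom. It called none of the 32 members fitted, and 0 of 14343 genes (0.0%), for diet or for genotype after Benjamini-Hochberg adjustment. At an unadjusted p under 0.05 it held 11 of 32 members for diet, against 1425 of 14343 genes. For genotype it held 5 of 32 members, against 1041 of 14343 genes. The lowest adjusted p of a member in this limma fit was 0.426 for diet, for Ube2c, with a difference of 1.02 on high-fat over normal diet, and 0.597 for genotype. With median scaling it called 3 members for diet (Mki67, Plk1 and Prc1) and 2 for genotype (Kif11 and Nek2). Over all 14343 genes it then called 377 for diet and 219 for genotype.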

How the data were processed

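Liver RNA of 4 groups was hybridised to 1 Agilent array each, labelled with Cy3. The authors deposited the scanner's spot intensity from Feature Extraction 11.5.1.1, per the file headers, and its processed signal, background-subtracted on a linear scale, was used here. The authors' deposited value table holds intensity that lay within 1% of the processed signal for 99.68% to 99.74% of probes, and served as an alternative. Control spots, and outlier spots of probes with other spots, were left out (98 to 186 outlier spots per array; none was saturated), spots of a probe were averaged on the log2 scale, and each array's 75th percentile was subtracted. Of 39429 probes, 27502 were named through RefSeq accessions (GRCm38.p6). The 4 arrays share 1 slide and 1 scan, which leaves no batch to test, and their number limits the precision.

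All 38 members were named, and genes of the other lists only where they rose or fell by the 2-fold rule, and some results of those lists are not reported here. limma 3.58.1 in R 4.3.3 gave the additive fit, over genes that 2 or more arrays placed well above background. The method was also run on simulated data, with equal noise for every gene and no true gap between the diet differences. That setting is unlike these arrays, so the run does not show how the fit behaves on them. The members, lists and rules were chosen with earlier results of these data known. Alternatives were median, quantile and cyclic loess scaling, normexp background correction, the mean of all probes, no filter, and a 1.5-fold limit. Python 3.11.15 was used for the rest.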

Additional observations from a re-analysis of the deposited data

Results flagged for a closer look

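Of 31 members, 6 had diet differences of opposite direction in the 2 genotypes, and 13 had genotype differences of opposite direction on the 2 diets. In 1 and 2 of these cases both differences exceeded their scanner error, and these are given here. The gap was not tested in any of them, because every group has 1 array. The diet difference of Rrm2 was -0.50 ± 0.20 in knockouts and 0.28 ± 0.20 in wild types (scanner error), so the reductase subunit was lower on high-fat diet in knockouts and higher in wild types. The genotype difference of Ccnd1 was 0.43 ± 0.20 on high-fat diet and -0.49 ± 0.20 on normal diet. The genotype difference of Ccna2 was 0.52 ± 0.24 on high-fat diet and -0.69 ± 0.31 on normal diet. In the Ccnd1 and Ccna2 comparisons the knockout on normal diet was the lowest of the 4 arrays.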

How the results depend on the processing

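No called difference of a member turned its direction under the other scalings, normexp, the mean of all probes or the authors' table. Of 133 member differences, called or not, the sign turned for 13 with median scaling, 7 with quantile normalization, 7 with cyclic loess, 21 and 18 with normexp at offsets of 50 and 0, and 7 with the mean of all probes. With normexp, 2 that exceeded their scanner error turned, Ccna2 by diet in wild types and Kif11 by genotype on normal diet (1.16, then -0.03 and -0.07 at offsets of 50 and 0). With the mean of all probes, 4 that exceeded their scanner error turned. These were Foxm1, Cdk1 and Tpx2 by genotype on high-fat diet, and Ccnb1 by genotype on normal diet. The Cdk1 diet difference in knockouts was 0.18 with this mean, against 0.99 with the brightest probe. In knockouts, the 9 members that rose on high-fat diet were 1 (Mki67) with normexp on the median signals at an offset of 50, 5 with an offset of 0 (both added after seeing the data) and 15 at a 1.5-fold limit. Of these 9, Mki67 rose under all 8 alternatives other than the 1.5-fold limit, Ccnd1, Ccna2, Plk1 and Prc1 under 7, Top2a and Ube2c under 6, Cdc20 under 4 and Mcm5 under 3, and Nek2 fell under all 8. In wild types the 0 members that rose were 1 (Ube2c) with the mean of all probes and 5 at 1.5-fold. On high-fat diet the 1 member higher in knockouts was 0 with either normexp offset, 2 without the filter on dim probes (Kif11 was added) and 9 at 1.5-fold. On normal diet it was 2 without the filter (Kif11 again) and 3 at 1.5-fold, with 1 lower at 1.5-fold. The 1 member with a greater diet difference in knockouts was 0 with quantile normalization and with normexp at an offset of 50. It was 2 with an offset of 0, 2 with the mean of all probes and 9 at 1.5-fold. The 1 with a smaller diet difference was 2 at 1.5-fold. No share over all genes is given for these fold-rule alternatives. The counts therefore describe the members and do not set them against other genes. With median scaling, the additive limma fit called 3 members for diet (Mki67, Plk1 and Prc1) and 2 for genotype (Kif11 and Nek2). Over all 14343 genes it called 377 for diet and 219 for genotype. There limma's estimate of the prior degrees of freedom was infinite, against 2.17 with the 75th percentile. The cause of these changes was not tested. Median scaling moved the median difference of all genes by -0.11 (diet in knockouts), 0.09 (diet in wild types), -0.06 (genotype on high-fat diet) and 0.14 (genotype on normal diet). Normexp on mean signals was not run, because that column is not in the scanner files used here. No replicate could be left out. No paired analysis was possible because each group has 1 array.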
